A study of Bos taurus with 45 samples.

Results

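ENSBTAG00000031688 and ENSBTAG00000005400 are 2 of the 24616 bovine genes counted in single demi-blastocysts, and both were read in a larger share of embryos with a pregnancy maintained to the second examination than of embryos with no pregnancy at the first. They were selected on exactly that difference, namely the number of maintained and of not established libraries with 5 or more counts. The difference between those outcomes is therefore given here as a description without a test. The deposited table names genes by Ensembl identifier only, and 0 of its identifiers could be paired with a symbol, so the products of these genes are not named and no gene list or lineage marker (trophectoderm, inner cell mass or hypoblast) could be looked up. No sequence is shown for the same reason.

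The data are RNA-seq counts from 45 demi-blastocysts, each of them one part of an in vitro produced bovine embryo cut by micro-blade on day 7. A blastocyst holds trophectoderm, which forms the outer layer and later the placenta, and an inner cell mass, which gives rise to the fetus. Interferon from the trophectoderm is the signal by which a cow recognises pregnancy. CSF2 (colony stimulating factor 2) is a cytokine made by the reproductive tract.

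All embryos came from X-sorted sperm, and their serum-free culture medium from day 5 to day 7 contained vehicle or bovine CSF2 (recombinant, 10 ng/ml). The other part of each embryo was transferred to a synchronized recipient, which was examined on day 30 and day 60. The maintained group (pregnant at both examinations) had 10 embryos, 5 with CSF2 and 5 with vehicle. The lost group (pregnant on day 30, not on day 60) had 6, of which 1 had CSF2 and 5 vehicle. The not established group (not pregnant on day 30) had 29, of which 14 had CSF2 and 15 vehicle. Where the cut was uneven, the smaller or less intact part was sequenced, so the outcome belongs to a sister part and not to the cells that were read. A library mixes all cells of its part, so fewer cells of a type and less RNA per cell cannot be told apart.

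Library depth bears directly on whether a gene is read. In 40 libraries the total was between 3906252 and 10326829 counts, with 1095 to 6137 genes at 5 or more counts. The other 5 libraries had between 137808 and 853817 counts and 50 to 502 such genes. They were 1 maintained, 1 lost and 3 not established libraries, and neither gene had a count in any of them. No library was identical to another.

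Detection, meaning 5 or more counts in a library, put ENSBTAG00000031688 in 9 of 10 maintained, 3 of 6 lost and 7 of 29 not established embryos. These are 90% (exact Clopper-Pearson 95% interval 55.5% to 99.7%), 50% (11.8% to 88.2%) and 24.1% (10.3% to 43.5%). ENSBTAG00000005400 was detected in 6 of 10 maintained, 0 of 6 lost and 1 of 29 not established embryos, or 60% (26.2% to 87.8%), 0% (0% to 45.9%) and 3.45% (0.0873% to 17.8%). The intervals cover counting error over embryos only. They do not allow for the selection of the genes on the maintained and not established shares. Whether the intervals of those groups overlap is therefore no test of the difference. The lost embryos were not used in the choice of the genes, but both groups they could be set against were, so their shares are also given without a test.

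**Figure D1:**
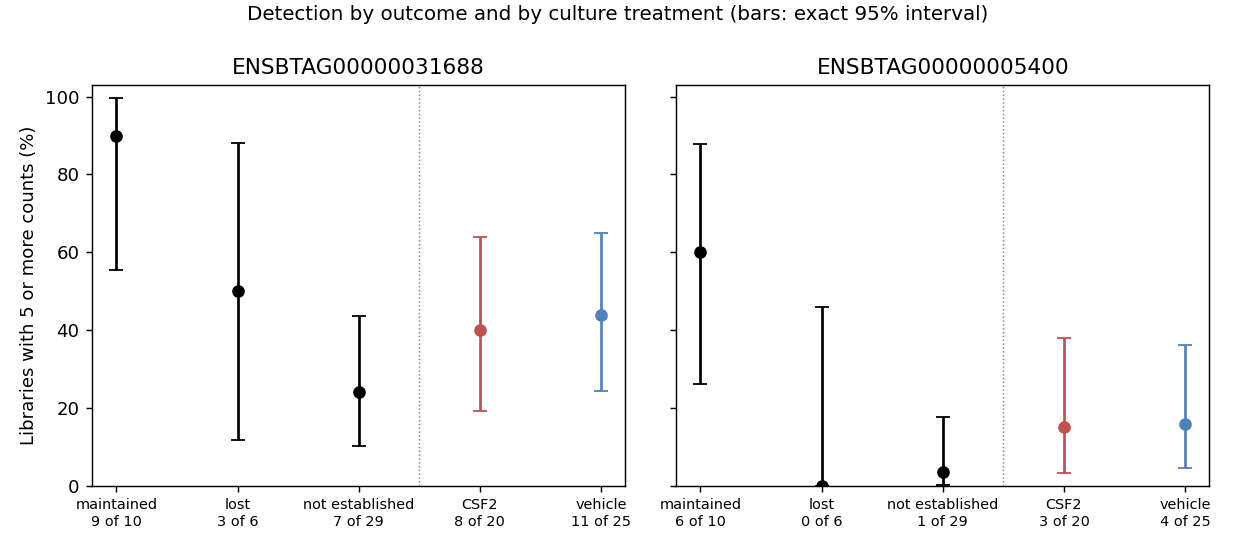
Share of libraries with 5 or more counts of each gene, by outcome (black) and by culture treatment over all outcomes (coloured), with exact 95% binomial intervals. The intervals do not allow for the selection of the genes. Detection is highest in the maintained group for both genes. That it is above the not established group follows from their selection, which did not use the lost group. By treatment, 8 of 20 CSF2 and 11 of 25 vehicle libraries had ENSBTAG00000031688 and 3 of 20 and 4 of 25 had ENSBTAG00000005400.

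The size of this difference among all genes shows how the 2 were picked. Of 12113 genes detected in at least 1 maintained or not established library, 1203 (9.93%) were detected in a larger number of maintained than of not established libraries, although the second group is larger. By share of libraries, 7043 of the 12113 genes were detected more often in the maintained group, so a higher share there is common. In points of percentage, ENSBTAG00000031688 had a difference of 65.9 between the groups, which 0.00826% of the genes, namely itself alone, reached. ENSBTAG00000005400 had 56.6 points, which 4 genes (0.033%) reached. A pair of genes ranked between them had 62.8 points (8 maintained and 5 not established libraries) and 59.7 points (7 and 3). The next below ENSBTAG00000005400 were a pair with 56.2 points, each in 7 maintained and 4 not established libraries. The differences thus form a continuous run in which no gap sets the 2 genes apart, and nothing about chance is read from their rank.

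Levels are given in CPM (counts per 1000000 counts of the library). Among maintained embryos with CSF2, ENSBTAG00000031688 had 0.771 CPM in replicate 1, 30.0 in replicate 2, 92.0 in replicate 3, 136 in replicate 9 and 313 in replicate 10. Among those with vehicle it had 58.0 CPM in replicate 4, 1.68 in replicate 5, 10.3 in replicate 6, 13.5 in replicate 7 and no count in replicate 8. So 4 of the 5 CSF2 embryos of this outcome had the level of replicate 2 (30.0 CPM) or more, which 1 of the 5 vehicle embryos reached. That limit was set after the values were seen, and the treatments overlap. With 10 or more counts taken as detected, the treatments differed by 0 points in this outcome. Replicate 8 is the library of 137808 counts, in which a count of 0 allows up to 21.8 CPM (3 counts of its total), above the level of 4 of the 9 embryos that were detected.

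In lost embryos ENSBTAG00000031688 had 61.0 CPM in replicate 1, the 1 embryo with CSF2, and 117 and 46.8 CPM in replicates 2 and 6, which had vehicle. The other 3 lost embryos had no count. The 3 detected values lie within the range of the maintained embryos, and there is no lost embryo between 0 and 46.8 CPM. In not established embryos with CSF2 it had 3.54 CPM in replicate 2 and 76.2 CPM in replicate 3, and replicates 5, 7 and 10 held 3, 3 and 1 counts, just under the minimum. In those with vehicle it had 25.0, 0.928, 211, 76.8 and 5.997 CPM in replicates 13, 17, 21, 22 and 24. The remaining 19 of 29 not established embryos had no count. Where the gene was read its level overlapped fully between outcomes, with a median of 30.0 CPM over 9 maintained, 61.0 over 3 lost and 25.0 over 7 not established embryos.

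Mean levels of ENSBTAG00000031688 followed the shares, with 65.5 ± 98.0 CPM (SD, n = 10) for maintained embryos, 37.4 ± 47.2 CPM (SD, n = 6) for lost ones and 13.8 ± 42.9 CPM (SD, n = 29) for the not established group. Every SD is larger than its mean, and neighbours in this order do not differ beyond their spread. A single embryo carried much of each mean. Maintained replicate 10 held 47.7% of its group's sum and left a mean of 38.0 CPM when omitted, lost replicate 2 held 52.0% and left 21.6 CPM, and not established replicate 21 held 52.6% and left 6.79 CPM. In the edgeR fit of all 45 libraries, with treatment as a term, the log2 change of maintained against not established was 2.71 and that of lost against not established 1.46. Both comparisons share the not established embryos.

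**Figure D2:**
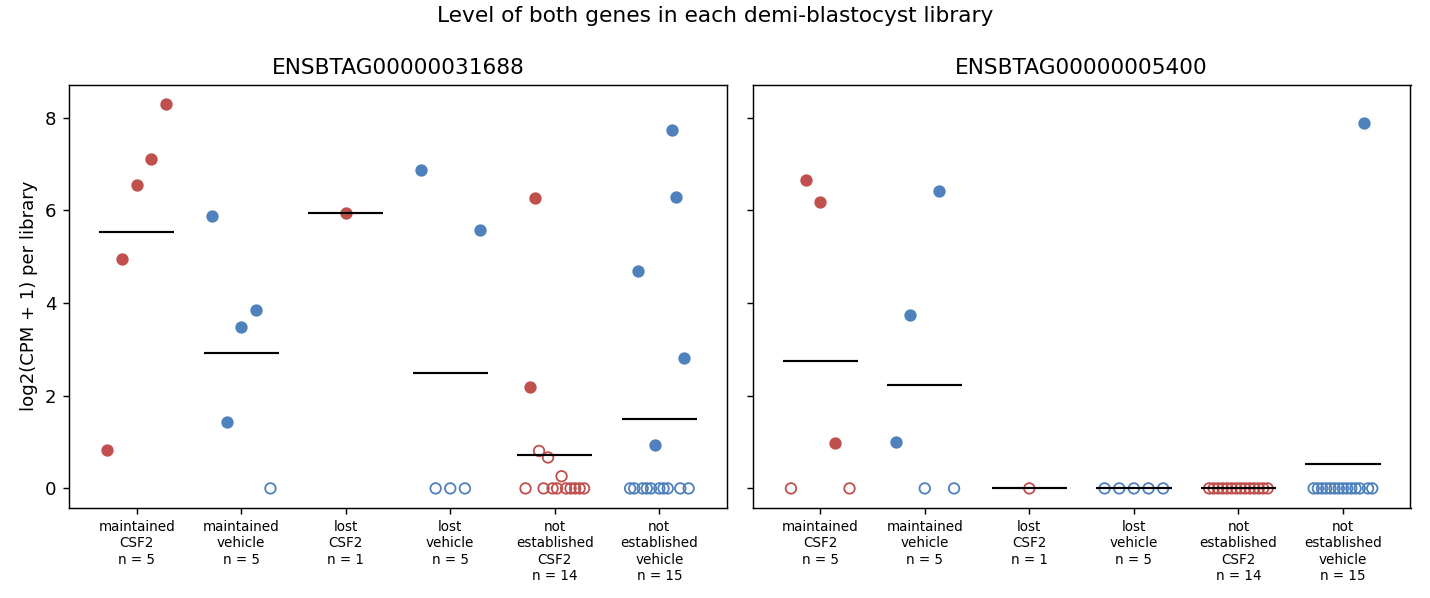
Level of each gene in every library, as log2(CPM + 1), by outcome and treatment (red CSF2, blue vehicle). Filled points have 5 or more counts, open points fewer, the line is the mean, and the horizontal place of a point within its group has no meaning. ENSBTAG00000031688 spreads from 0 to 313 CPM within the maintained group alone, and ENSBTAG00000005400 is above 0 in 6 maintained embryos and 1 not established embryo.

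ENSBTAG00000005400 was read in fewer embryos. Maintained replicates 2, 3 and 9, which had CSF2, held 99.2, 71.4 and 0.961 CPM. Maintained replicates 4, 5 and 7, which had vehicle, held 0.997, 12.4 and 84.4 CPM. The values fall into 4 embryos with at least 12.4 CPM and 2 close to the minimum, with 5 counts in replicate 4 and 6 counts in replicate 9. The remaining 4 maintained embryos had no count, among them replicate 8 with its shallow library. No lost embryo had a count of this gene, and a count of 0 allows up to 0.419 to 0.695 CPM in the 5 deeper lost libraries and up to 4.36 CPM in the shallow one. The single detection among the not established embryos was also the highest level of the gene in the series, 237 CPM from 1406 counts in replicate 23, which had vehicle. The remaining 28 not established embryos had no count at all.

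The means of ENSBTAG00000005400 were 26.9 ± 40.8 CPM (SD, n = 10) for maintained embryos and 8.18 ± 44.0 CPM (SD, n = 29) for the not established group, against no count in 6 lost embryos. All of the not established mean came from replicate 23, without which that group had no count. The gene did not pass edgeR's filter on low counts with all 45 libraries, so it has no value in the filtered fit.

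The count taken as the minimum decides part of these shares. With 1 or more counts ENSBTAG00000031688 was present in 9 of 10 maintained and 10 of 29 not established embryos, and with 10 or more in 8 and 6. With 20 or more counts it was present in 7 of 10 and 5 of 29, while the lost group stayed at 3 of 6 under each of these minimums. For ENSBTAG00000005400 the maintained group went from 6 to 4 of 10 at 10 or more counts and stayed there at 20, and the not established group held 1 of 29 throughout. A minimum of 1 CPM gave the same numbers as 10 or more counts for both genes. These minimums are applied to the same counts that chose the genes, so the order of the groups follows from the choice and is no support for it.

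**Figure D3:**
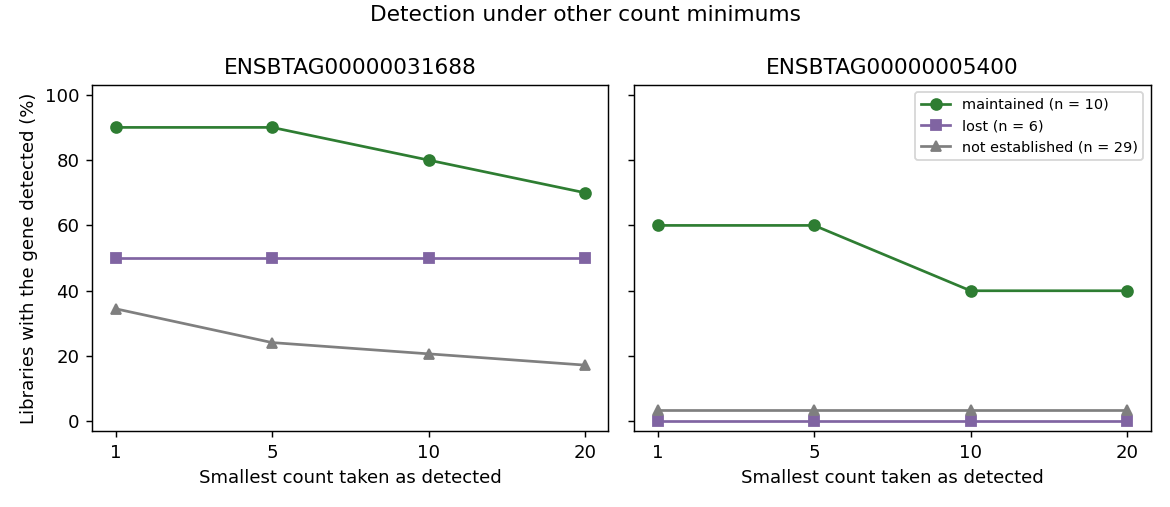
Percent of libraries in which each gene counts as detected, for minimums of 1, 5, 10 and 20 counts, by outcome. By the selection of the genes the maintained line lies above the not established line, at 70% against 17.2% for ENSBTAG00000031688 and 40% against 3.45% for ENSBTAG00000005400 at 20 counts.

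Leaving out the 5 shallow libraries put ENSBTAG00000031688 in 9 of 9 maintained, 3 of 5 lost and 7 of 26 not established embryos. Its means were then 72.8 ± 101 CPM (SD, n = 9), 44.9 ± 48.6 CPM (SD, n = 5) and 15.4 ± 45.1 CPM (SD, n = 26). ENSBTAG00000005400 was detected in 6 of 9, 0 of 5 and 1 of 26, with 29.9 ± 42.1 CPM (SD, n = 9) for maintained embryos and 9.12 ± 46.5 CPM (SD, n = 26) for the not established group. In the deeper not established libraries a count of 0 allows between 0.291 and 0.768 CPM, depending on the total. The lowest detected levels in maintained embryos lie close to these limits, at 0.771 CPM for ENSBTAG00000031688 and 0.961 and 0.997 CPM for ENSBTAG00000005400. The next level of ENSBTAG00000031688 was 1.68 CPM, from 13 counts.

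The culture treatment was not used to pick the genes and could be tested. ENSBTAG00000031688 was detected in 8 of 20 CSF2 and 11 of 25 vehicle embryos (two-sided Fisher's exact test, p = 1), and ENSBTAG00000005400 in 3 of 20 and 4 of 25 (p = 1, Fisher's exact test). Among the 6718 genes detected in 7 or more libraries, the same test gave an unadjusted p below 0.05 for 2.02%, and neither gene was among them. Within the maintained group ENSBTAG00000031688 was detected in 5 of 5 CSF2 and 4 of 5 vehicle embryos (exact Fisher p = 1). Within the not established group it was detected in 2 of 14 and 5 of 15 (exact Fisher p = 0.39). ENSBTAG00000005400 was detected in 3 of 5 of either treatment in the maintained group (exact Fisher p = 1), and in 0 of 14 CSF2 and 1 of 15 vehicle embryos of the not established group (exact Fisher p = 1). Over these 6 tests each Benjamini-Hochberg adjusted p was 1. A difference in detection between CSF2 and vehicle was not detectable with these numbers of embryos.

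The mean level of ENSBTAG00000031688 was 35.7 ± 76.0 CPM (SD, n = 20) with CSF2 and 22.7 ± 49.1 CPM (SD, n = 25) with vehicle (p = 0.511 by a two-sided permutation test, adjusted p = 0.957). Without maintained replicate 10 the difference, CSF2 minus vehicle, turned to -1.56 CPM (permutation p = 0.939). In the 2 outcomes with enough embryos the differences had opposite signs. In maintained embryos the means were 114 ± 123 CPM (SD, n = 5) with CSF2 and 16.7 ± 23.8 CPM (SD, n = 5) with vehicle, a difference of 97.7 CPM (exact permutation test, two-sided, p = 0.0794, adjusted p = 0.476). With each maintained embryo omitted in turn the unadjusted exact permutation p lay between 0.0317 and 0.159. The difference was 126 CPM without replicate 1 (exact permutation p = 0.0317) and 48.0 CPM without replicate 10 (exact permutation p = 0.159). In not established embryos they were 5.80 ± 20.3 CPM (SD, n = 14) and 21.3 ± 56.3 CPM (SD, n = 15), a difference of -15.5 CPM (permutation p = 0.342, adjusted p = 0.957), which was -1.97 CPM without replicate 21 (permutation p = 0.661). None of these differences passed the correction over the 6 tests of level.

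ENSBTAG00000005400 had 8.58 ± 26.6 CPM (SD, n = 20) with CSF2 and 13.4 ± 49.6 CPM (SD, n = 25) with vehicle (permutation p = 0.798, adjusted p = 0.957). Not established replicate 23 alone set that direction, since without it CSF2 was higher by 4.50 CPM (permutation p = 0.594). In maintained embryos the means were 34.3 ± 47.6 CPM (SD, n = 5) and 19.6 ± 36.6 CPM (SD, n = 5), a difference smaller than either SD (exact permutation p = 0.69, adjusted p = 0.957). Without maintained replicate 2 its sign turned, to -1.47 CPM (exact permutation p = 0.714). In not established embryos no CSF2 embryo had a count and the vehicle mean of 15.8 ± 61.2 CPM (SD, n = 15) was replicate 23 (permutation p = 1).

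In the edgeR quasi-likelihood fit of all genes, with outcome as a term, ENSBTAG00000031688 had a log2 change of -0.78 for CSF2 against vehicle (adjusted p = 1), the opposite sign to its difference in mean CPM. Of 6909 genes 0.767% were called there. Without not established replicate 21 the log2 change was 0.23 (adjusted p = 0.9996), so 1 embryo set its sign. The test of whether the CSF2 effect differed between maintained and not established embryos gave a log2 difference of 4.50 for this gene (adjusted p = 0.9998), and 0.0652% of 4603 genes were called. The opposite directions of the mean CPM in the 2 outcomes were thus not told apart by this test.

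ENSBTAG00000005400 could be fitted with all 45 libraries without the filter on low counts, where 24.7% of 12994 genes were called for CSF2 against vehicle. It was one of them, with a log2 change of -6.93 (adjusted p = 0.0281, edgeR). Without not established replicate 23 the log2 change was 0.22 (adjusted p = 0.941, edgeR), and the gene was detected in nearly equal shares of the treatments (15% and 16%). With the filter and without the 5 shallow libraries, where the gene passed, it had -7.65 (adjusted p = 0.184, edgeR). Unfiltered and without those libraries it was still called, at -7.51 (adjusted p = 0.0392, edgeR), with 21.2% of 12969 genes called. The unfiltered test of the CSF2 effect between maintained and not established embryos gave 10.18 (adjusted p = 0.108, edgeR) with 3.17% of 12813 genes called. Without not established replicate 23 that value was 0.716 (adjusted p = 1, edgeR).

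Both genes were read together in 6 maintained embryos and in no lost or not established embryo. Both were selected for detection in the maintained group. If they were read independently, both would be expected in 5.4 of 10 maintained and 0.241 of 29 not established embryos. All 6 maintained embryos with ENSBTAG00000005400 also had ENSBTAG00000031688, 3 had the latter alone, and 1, the shallow replicate 8, had neither (two-sided Fisher's exact test, p = 0.4, adjusted p = 0.8). With ENSBTAG00000031688 in 9 of the 10 embryos no overlap could have given a smaller p. In not established embryos 7 had ENSBTAG00000031688 alone, 1 had ENSBTAG00000005400 alone, 21 had neither and none had both (exact Fisher p = 1). With ENSBTAG00000005400 in 1 of these 29 embryos, no overlap could have given a Fisher p below 0.05. In lost embryos 3 had ENSBTAG00000031688 alone and 3 had neither. Where both were present, embryos high in one gene were in some cases low in the other. Replicate 3 had 92.0 CPM of ENSBTAG00000031688 and 71.4 CPM of ENSBTAG00000005400, replicate 2 had 30.0 and 99.2 CPM, and replicate 5 had 1.68 and 12.4 CPM. Replicate 9 had 136 CPM of ENSBTAG00000031688 and 0.961 CPM of ENSBTAG00000005400, replicate 4 had 58.0 and 0.997 CPM, and replicate 7 had 13.5 and 84.4 CPM. Over the 40 deeper libraries Pearson's r of log2(CPM + 1) between the genes was 0.166, a description over libraries that differ in depth and in the number of genes read.

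Detection was also set against the breadth of a library, the number of other genes it read, within each outcome. A gene read in part of the libraries falls on average in those that read more genes. The same difference was not computed for other genes, so the values below are not read as particular to either gene. The 6 maintained libraries with ENSBTAG00000005400 had 4690 ± 1411 (SD, n = 6) other genes at 5 or more counts and the 4 without it 1864 ± 1294 (SD, n = 4; exact permutation test, two-sided, p = 0.0381, adjusted p = 0.0762). Without the shallow replicate 8 the libraries lacking the gene had 2469 ± 565 genes (SD, n = 3; exact permutation p = 0.0952). Of the 6 libraries with the gene, 5 had more genes than any library without it, and replicate 4, with 2053, had fewer than the 3 deeper ones that lacked it. Replicate 4 was also one of the 2 libraries near the minimum. The not established replicate 23 had 4449 other genes, above the mean of 2974 ± 1359 (SD, n = 28) in the rest of its group.

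For ENSBTAG00000031688 the 7 not established libraries with the gene had 3639 ± 1129 other genes (SD, n = 7) and the 22 without it 2829 ± 1394 (SD, n = 22; exact permutation test, two-sided, p = 0.167, adjusted p = 0.167). Without shallow libraries the second value was 3239 ± 981 (SD, n = 19; exact permutation p = 0.385). In the maintained group the 9 libraries with the gene ranged from 2053 to 6136 other genes, and its highest level, in replicate 10, was in a library that read 2097 genes in all. The part of library breadth in the difference between outcomes was not tested.

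**Figure D4:**
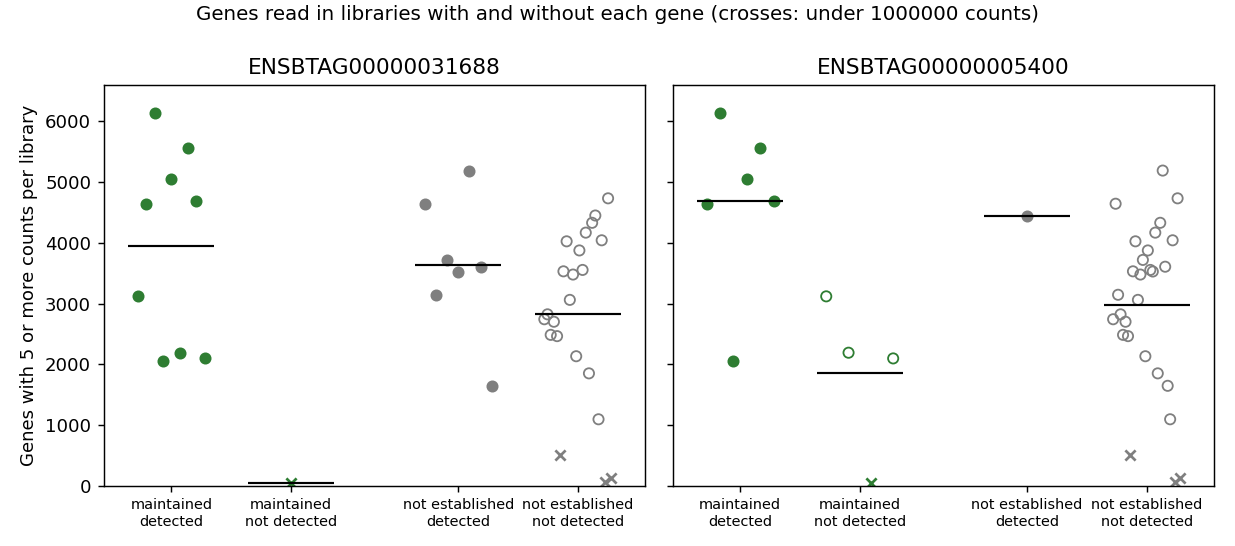
Number of genes with 5 or more counts in each library (the plotted gene included), for maintained (green) and not established (grey) embryos with and without each gene, with the mean as a line and libraries under 1000000 counts as crosses. Maintained libraries with ENSBTAG00000005400 lie mostly above those without it, and libraries with ENSBTAG00000031688 spread over nearly the whole range of their group. Other genes were not compared in this way.

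The genes whose levels ran most like these were sought over the 40 deeper libraries, among genes detected in at least 10 of them. For ENSBTAG00000031688 they were ENSBTAG00000006500 (Pearson's r of log2(CPM + 1) 0.730), ENSBTAG00000026461 (0.624) and ENSBTAG00000007164 (0.607), against a median of 0.070 over 5353 genes. ENSBTAG00000006500 was detected in 12 of the 19 libraries that had ENSBTAG00000031688, and over all libraries in 7 of 10 maintained, 2 of 6 lost and 8 of 29 not established. ENSBTAG00000026461 was detected in 6, 1 and 7 of these groups, and ENSBTAG00000007164 in 7, 3 and 11. Means in maintained, lost and not established embryos were 137, 1232 and 18.3 CPM for ENSBTAG00000006500. They were 180, 3.24 and 22.3 CPM for ENSBTAG00000026461, and 95.9, 164 and 46.7 CPM for ENSBTAG00000007164. By mean CPM ENSBTAG00000006500 and ENSBTAG00000007164 were thus highest in lost embryos, unlike ENSBTAG00000031688. By share of libraries detected, both were highest in maintained embryos, as ENSBTAG00000031688 was. Their lost means come from 6 embryos, of which 2 and 3 had the gene detected. How much of these means single embryos carried was not examined. For ENSBTAG00000005400 the most alike genes were ENSBTAG00000001626 (r 0.631), ENSBTAG00000020844 (0.603) and ENSBTAG00000034495 (0.602), against a median of 0.142 over 5354 genes. ENSBTAG00000020844 was detected in 6 of the 7 libraries that had ENSBTAG00000005400 and the others in 5 of 7. Each of these 3 was detected in 5 of 10 maintained embryos, and in 6, 6 and 7 of 29 not established embryos. All these correlations are over the same libraries, which differ in depth and breadth, and are a description only.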

How the data were processed

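The authors deposited whole-number read counts per Ensembl gene for 45 libraries, not normalized. Per the labels' protocols, column-purified total RNA went into NuGEN Ovation SoLo libraries with custom bovine depletion. The submitters' processing notes name UMD3.1, bosTau8 and edgeR. The sources used here do not give the aligner, counter, strand use or duplicate handling. Columns were matched by title, and groups taken from the pregnancy status and culture labels. The labels do not say whether embryos shared a parent, batch or day.

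The genes were chosen with earlier results of these data known, and the rule for like genes (the 3 highest correlations per gene) likewise. CPM uses library totals. Tests used R 4.3.3 with edgeR 4.0.16 (filterByExpr on outcome, TMM, robust quasi-likelihood, Benjamini-Hochberg over all genes tested at 0.05), and scipy 1.17.1 for Fisher's exact tests and permutation tests (exact if either group was smaller than 10, otherwise 100000 resamples). ENSBTAG00000031688 passed the filter and ENSBTAG00000005400 did not. The edgeR script was tested on simulated data, where each changed gene it called had the right direction, but it also called unchanged genes above the nominal rate. Alternatives were DESeq2 1.42.0, other scalings, no filter, other detection minimums, no shallow libraries, each library omitted in turn, and a replicate block. The unfiltered alternatives for ENSBTAG00000005400 were added after seeing the data.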

Additional observations from a re-analysis of the deposited data

Results flagged for a closer look

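Of 8 sets of 5 to 10 libraries of 1 outcome in which a gene had counts, 3 held a library far from the others. The sets overlap. Chance gives such a library in about 1 group of 20 for normally distributed values, and these values are skewed with many at 0, for which the rate was not tested. ENSBTAG00000031688 had 313 CPM in maintained replicate 10, a gap to the next embryo of 0.565 of the range over the 10 maintained embryos. The same gene had 58.0 CPM in maintained replicate 4, a gap of 0.767 of the range over the 5 maintained embryos with vehicle. ENSBTAG00000005400 had 84.4 CPM in maintained replicate 7, a gap of 0.853 of the range over the same 5 embryos.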

How the results depend on the processing

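Of the alternatives other than single libraries left out, 113 values neither reversed nor crossed the threshold. Some of these went to or from 0. The CSF2 minus vehicle difference in detection in maintained embryos went from 20 to 0 points for ENSBTAG00000031688 (10 or more counts, a CPM of at least 1, or no shallow libraries) and from 0 to -15 for ENSBTAG00000005400 (no shallow libraries), and the excess of maintained libraries with both genes went from 0.6 to 0 (no shallow libraries). With 1 or more counts, the CSF2 minus vehicle difference in detection of ENSBTAG00000031688 turned from -4 to 11 points over all outcomes and from -19.0 to 2.38 points in not established embryos. The labels do not say whether a shared replicate number pairs embryos. With each gene's outcome mean removed, same-numbered embryos of different outcomes had a median correlation of 0.0077 (22 pairs, 1 above 0.1). Those with other numbers had -0.00027 (502 pairs, 11 above 0.1). Whether a shared parent, batch or day would show here was not tested. With a replicate block on 26 libraries the log2 change for CSF2 turned to 5.49 for ENSBTAG00000031688 (adjusted p = 0.983, edgeR) and, unfiltered, to 1.46 for ENSBTAG00000005400 (adjusted p = 1, edgeR). For CSF2 against vehicle, ENSBTAG00000005400 had -7.65 with the filter and without the 5 shallow libraries (adjusted p = 0.184, edgeR). Unfiltered, it had -7.51 without them (adjusted p = 0.0392, edgeR), with 21.2% of 12969 genes called. Unfiltered DESeq2 on all libraries gave -11.8 (adjusted p = 0.00103), with 6.81% of 5974 genes called. All these fits include not established replicate 23. Without the shallow libraries, detection of ENSBTAG00000031688 in maintained embryos was 100%. The difference in genes read with and without ENSBTAG00000005400 was then 2221 in place of 2826 (exact permutation p = 0.0952). Unfiltered DESeq2 gave 24.3 (adjusted p = 0.00109) for the CSF2 effect on ENSBTAG00000005400 between outcomes, where 9.47% of 6196 genes were called. The unfiltered edgeR value of 10.18 for that effect was 0.716 without not established replicate 23. In all, 24.7% of genes were called for CSF2 in the unfiltered edgeR fit against 0.767%. The causes of these changes were not tested.

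With each library left out in turn, the CSF2 log2 change of ENSBTAG00000031688 lay between -3.21 and 0.23. For ENSBTAG00000005400 13 libraries were left out in turn, in different fits. Unfiltered, without each library with a count, it lay between -7.30 (without maintained replicate 4) and 0.22 (without not established replicate 23). With the filter, which the gene passed without any 1 lost library, it lay between -8.16 and -7.06. The CSF2 minus vehicle CPM of ENSBTAG00000031688 lay between -1.56 and 20.9 over all outcomes and between 48.0 and 126 in maintained embryos, and that of ENSBTAG00000005400 between -9.59 and 4.50 and between -1.47 and 31.0. Detection of ENSBTAG00000031688 lay between 88.9% and 100% of maintained embryos, and that of ENSBTAG00000005400 between 0% and 3.57% of not established embryos. Few embryos and 5 shallow libraries limit the precision of all these values.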
